A study of Mus musculus with 27 samples.

Results

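The colon of conventionally housed Il10 knockout mice was compared at 9 and at 7 weeks of age, across all measured genes. The comparison rests on 6 arrays, 3 labelled 9CC and 3 labelled 7CC, out of 27 in the series, and on 18193 genes. These arrays were chosen by their titles, and each gene was read by 1 probe set, the one with a single gene symbol and the highest mean over the 27 arrays. RNA came from homogenized colon of full thickness, so mucosa and muscle wall were measured together, with 1 array per sample. The study held IL10-/- mice in conventional housing (CC), IL10-/- mice in specific pathogen free housing (SPF) and wild types in conventional housing (WT), each at 7, 9 and 12 weeks with 3 arrays a group. The labels do not spell out CC, which was read as conventional housing because SPF and WT account for the remaining groups. The 7CC, 9CC, 7SPF and 9SPF groups all lack Il10, and 7WT and 9WT are the untreated controls of the same ages. The 3 replicates of a group were chosen by the submitters by colon length and colonic damage, so each group is a selection of the animals. The labels do not say whether samples pooled animals or which stretch of colon was taken, and p-values measure only the spread between these samples. No strain, knockout allele or hour of collection is given in the sources used here.

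Interleukin 10 is a cytokine that holds back macrophages, dendritic cells and T cells in the gut wall. Colitis can arise in mice that lack it, given a gut flora. In such inflammation, T cells and natural killer cells release interferon gamma, which switches on guanylate-binding proteins, antigen presentation and T cell-drawing chemokines. Epithelium and stroma meanwhile make chemokines that draw neutrophils, antimicrobial proteins and matrix-degrading enzymes.

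Values are log2 expression as deposited, differences are 9 minus 7 weeks on that scale, and ± after a difference is its standard error from 1 limma model of all 27 arrays (n = 3 arrays a group). A gene is said to rise, fall or change where its adjusted p was under 0.05 over all 18193 genes. With 3 arrays against 3, an exact permutation test of a single gene cannot go below p = 0.1, so the tests below use limma's spread, shared over genes and groups. The 6 arrays correlated with each other at Spearman coefficients of 0.974 to 0.992. Actin signal from the 3' end exceeded that from the 5' end by 0.50 to 0.62 in the 7-week arrays and by 0.37 to 0.48 in the 9-week arrays. The presence of epithelium was checked with Epcam, an epithelial adhesion protein. It stood at 12.73, 12.75 and 12.79 at 7 weeks and at 12.69, 12.73 and 12.64 at 9 weeks. Vil1, the brush border protein villin, was likewise between 11.20 and 11.46 in all 6 arrays. The whole list of 11 measured colon epithelium genes was less even, with differences from -2.85 to 0.80 and a median of -0.06. The mean of that list was 10.8 in each 7-week array and 10.1, 10.6 and 10.5 at 9 weeks. Its distal colon member Hoxb13 fell.

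The probe set of the targeted gene, Il10, read 4.99, 5.10 and 5.0 at 7 weeks and 6.35, 6.30 and 5.66 at 9 weeks, a rise of 1.07 ± 0.29 (adjusted p = 0.022). Every 9-week array lay above every 7-week array, and the 9 wild-type arrays lay lower, between 3.51 and 3.83. The position of this probe relative to the deleted part is not given, so the signal checks nothing about the knockout. Il10 lost its call when either of replicates 1 and 2 of 7CC or of 9CC was left out, with adjusted p up to 0.116.

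In all, 1899 genes (10.4%) changed between 7 and 9 weeks, 971 upward (5.34% of genes tested) and 928 downward (5.10%). Of these, 555 changed at least 2-fold, 341 upward and 214 downward. The median difference over all genes was 0.01. The 3 arrays of 1 age lay beyond all 3 of the other for 97.9% of the called genes, against 32.0% of all genes. Leaving out 1 array moved the count of called genes strongly. It was 442 without 7CC replicate 1, 731 without 7CC replicate 2, 429 without 9CC replicate 1 and 881 without 9CC replicate 2. Without 12SPF replicate 2, an array outside the comparison that enters through the shared spread, it was 2962.

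**Figure D1:**
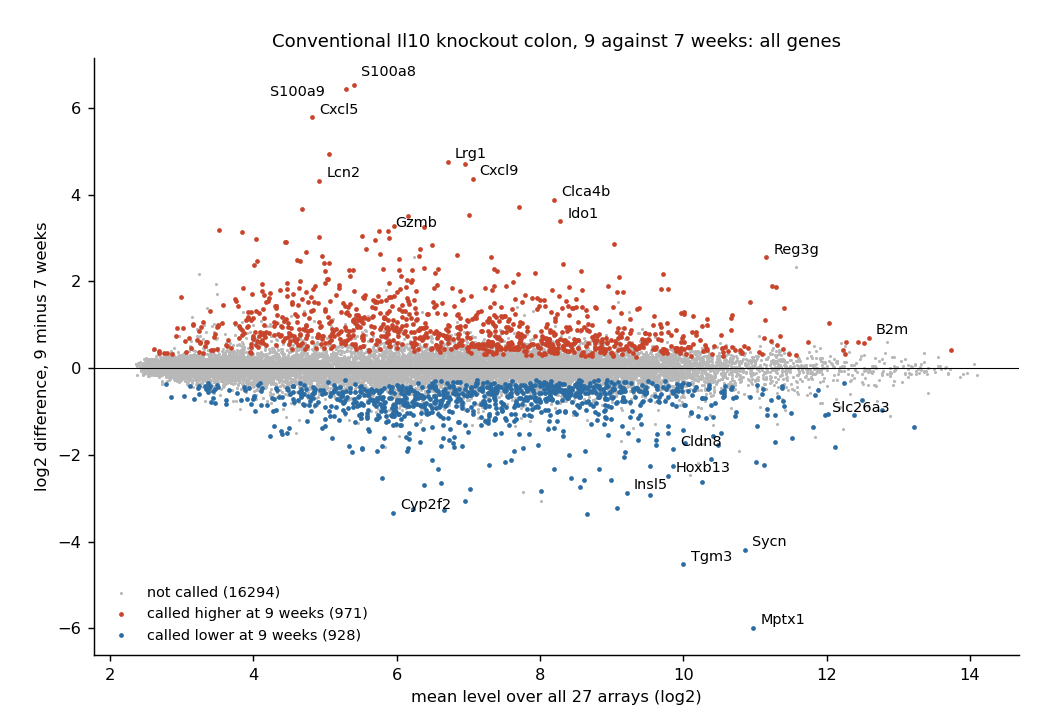
Each point is 1 gene, with its mean log2 level over all 27 arrays on the horizontal axis and its log2 difference, 9 minus 7 weeks, on the vertical axis. The 971 red and 928 blue points are genes called higher and lower at an adjusted p under 0.05, with S100a8 (6.51) at the top and Mptx1 (-5.99) at the bottom.

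The largest rise was that of S100a8, on chromosome 3, which encodes a subunit of calprotectin, a zinc-binding protein of neutrophils that is used as a stool marker of colitis. It read 3.84, 3.50 and 3.89 at 7 weeks and 10.55, 11.08 and 9.14 at 9 weeks, a rise of 6.51 ± 1.12 (adjusted p = 0.0015). Its 7-week level was near that of the 9 wild-type arrays (3.20 to 3.71) and low on the array's scale, so no fold is given. The groups were far apart, and replicate 3 was the lowest of the 9-week arrays. S100a9, the other calprotectin subunit, rose by 6.44 ± 1.18. Cxcl5, a chemokine that draws neutrophils, stood at 3.10, 3.09 and 3.21 at 7 weeks and at 9.67, 9.39 and 7.69 at 9 weeks. It rose by 5.78 ± 0.87 from a similarly low level, again with the lowest 9-week value in replicate 3.

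Lcn2 encodes lipocalin 2, which starves bacteria of iron. It went from 3.44, 3.70 and 3.95 to 8.29, 8.17 and 7.60, a rise of 4.32 ± 0.82. Lrg1, a secreted glycoprotein of the acute phase, rose by 4.75 ± 0.66, and Saa3, a serum amyloid A protein, by 3.70 ± 0.58. Pla2g2a, a bactericidal phospholipase, rose by 2.50 ± 0.35, and Nos2, the inducible nitric oxide synthase, by 2.58 ± 0.45. Reg3g, a lectin that kills Gram-positive bacteria, was already high at 7 weeks (9.89, 10.67 and 11.81) and reached 13.58, 13.13 and 13.31 at 9 weeks. Its rise of 2.55 ± 0.66 lost its call without replicate 1 or 2 of 7CC or replicate 1 of 9CC (adjusted p up to 0.114). Over the antimicrobial and acute phase list, 12 of 23 measured members rose and 1 fell, with a median of 1.04. The member that fell was Mptx1, described with the epithelial genes.

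**Figure D2:**
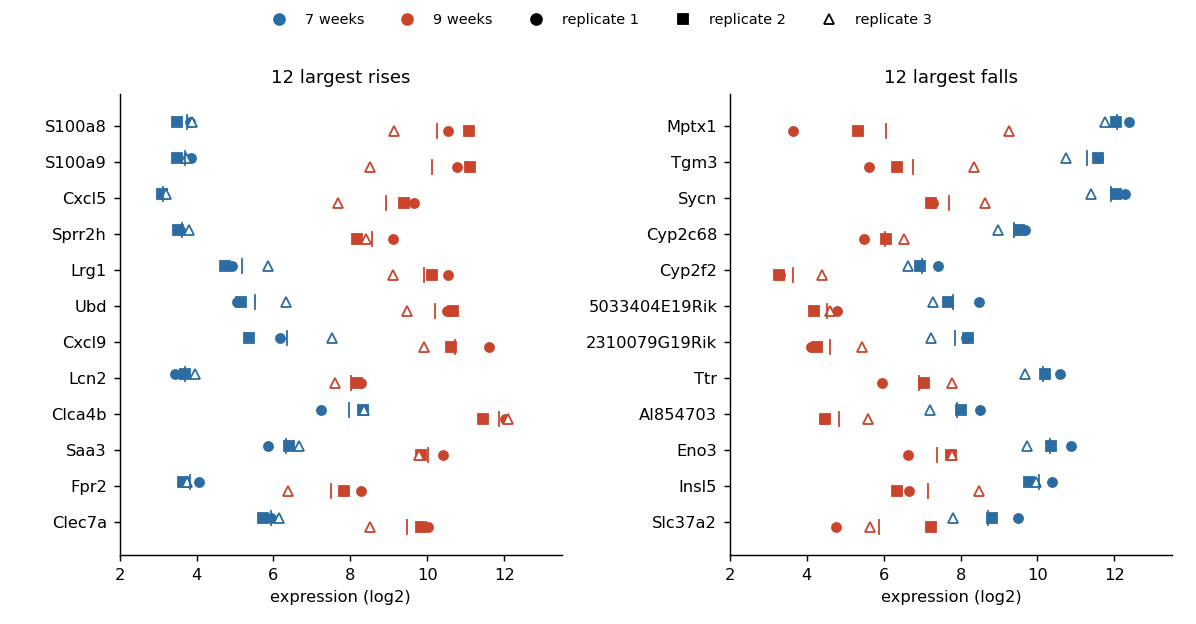
Log2 expression of the 12 genes with the largest rises (left) and the 12 with the largest falls (right) among called genes whose arrays did not overlap. Blue marks are 7 weeks, red marks 9 weeks, symbols give the replicate and bars the group mean. The open triangle, replicate 3, is often the 9-week array nearest to the 7-week arrays.

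Neutrophil markers were uneven. Among chemokines and receptors that steer neutrophils, 4 of 9 measured members rose: Cxcl5, Cxcl2 (3.15 ± 0.85), Cxcl1 (1.5 ± 0.45) and the receptor Cxcr2 (0.41 ± 0.12). Fpr2, a receptor for bacterial formyl peptides on myeloid cells, rose by 3.67 ± 0.77. Ltf, the secondary granule protein lactoferrin, rose by 1.69 ± 0.50, and Cd177, a neutrophil surface protein, by 1.27 ± 0.32. The granule protein genes Mpo, Elane and Camp gave no call. Mpo read 3.61, 3.34 and 3.84 at 7 weeks and 3.73, 3.51 and 3.85 at 9 weeks, and Elane differed by -0.13 ± 0.11 and Camp by 0.04 ± 0.15. In all 5 of 13 measured neutrophil markers rose, with a median of 0.44. Cxcl1, Cxcl2, Cxcr2, Ltf and Cd177 lost their calls without 7CC replicate 1, 9CC replicate 1 or 9CC replicate 2. They also lost them without some of the other 7CC arrays, with adjusted p up to 0.163, 0.102, 0.170, 0.137 and 0.105. Cxcr2 lost its call with only the arrays of the groups compared as well.

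Myeloid markers moved more evenly. Of 22 macrophage and monocyte markers, 17 rose and none fell, with a median of 1.28. Mpeg1, a pore-forming protein of macrophages, went from 7.69, 7.67 and 7.85 to 9.67, 9.67 and 9.25, a rise of 1.79 ± 0.27. The complement subunit gene C1qa rose by 1.22 ± 0.23, the oxidase subunit gene Cybb by 2.41 ± 0.45 and the Fc receptor gene Fcgr4 by 2.43 ± 0.40. Clec7a, the beta-glucan receptor dectin-1, rose by 3.52 ± 0.56 and Itgax, which encodes CD11c, by 2.02 ± 0.42. Adgre1, a surface antigen of resident macrophages, differed by only 0.34 ± 0.17 and gave no call (adjusted p = 0.23). In bulk tissue, more cells of a type and more RNA per cell cannot be told apart, here or in the marker lists that follow. The mean of the macrophage list was 6.12 ± 0.03 (SD, n = 3) at 7 weeks and 7.45 ± 0.39 at 9 weeks, with 7.73, 7.61 and 7.00 in the 3 arrays.

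Genes of the IL-1, TNF and IL-6 families rose in part. Il1b, the inflammasome-processed cytokine, stood at 5.11, 5.03 and 5.05 at 7 weeks and at 9.22, 8.67 and 6.75 at 9 weeks, a rise of 3.15 ± 0.72. Tnf rose by 1.12 ± 0.25, Lif, a cytokine of the IL-6 family, by 1.23 ± 0.29, and Il1r2, the decoy receptor for IL-1, by 2.06 ± 0.55. Il6 itself read 4.58, 3.65 and 3.17 at 9 weeks against 2.53 to 2.67 at 7 weeks, which did not pass the test (1.19 ± 0.62, adjusted p = 0.23). Osm did not pass either (0.50 ± 0.18, adjusted p = 0.081), while its receptor gene Osmr rose by 1.24 ± 0.28. In all 7 of 20 members of the IL-1, TNF and IL-6 list rose, with a median of 0.84. Il1b and Lif lost their calls without 9CC replicate 1 (adjusted p up to 0.0732 and 0.0863), and Tnf without replicate 1 of either group (up to 0.0697). Osmr was lost without 7CC replicate 2 or 9CC replicate 1 (up to 0.0604), and Il1r2 without replicate 1 or 2 of either group (up to 0.133).

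All 10 measured interferon-inducible GTPases, which attack vacuoles that hold microbes, rose by 1.39 to 2.85, with a median of 1.99. Iigp1 read 8.48, 7.88 and 10.64 at 7 weeks and 12.24, 11.82 and 11.49 at 9 weeks, a rise of 2.85 ± 0.48. Here the 7-week replicate 3 stood closer to the 9-week arrays than to its own group. The mean of the list showed the same order, with 7.80, 7.47 and 8.76 at 7 weeks and 10.32, 9.97 and 9.66 at 9 weeks. Igtp rose by 2.23 ± 0.37, Irgm1 by 1.40 ± 0.21, Irgm2 by 1.39 ± 0.26, Gbp6 by 2.29 ± 0.38 and Gbp8 by 2.29 ± 0.35. These are families of close paralogs, and a probe set may read more than 1 member.

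Windows of 300 bases around gene starts (RefSeq, GRCm38.p6) were searched on both strands for GAAA, any 2 bases and GAAA again, the core of the interferon-stimulated response element that IRF factors bind. Of the 10 GTPase genes 7 had a window in the table, and 6 of these held the element, against 3.99% of 27025 genes. The matches are shown with the bases around them, 5' to 3' on the strand of the gene, with the match in capitals (paired TTTC blocks are the same element read on the other strand). Irgm2 and Igtp, neighbours on chromosome 11, carry nearly the same stretch, and Irgm1 and Gbp3 hold a pair of overlapping matches.
Irgm1, chr11:48871415-48871470, minus strand: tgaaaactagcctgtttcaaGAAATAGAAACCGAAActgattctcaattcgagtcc
Irgm2, chr11:58214893-58214942, plus strand: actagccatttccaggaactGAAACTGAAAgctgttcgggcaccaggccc
Igtp, chr11:58199502-58199551, plus strand: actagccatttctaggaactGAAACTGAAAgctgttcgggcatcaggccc
Gbp2, chr3:142620584-142620633, plus strand: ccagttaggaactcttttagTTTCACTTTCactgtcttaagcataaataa
Gbp3, chr3:142559979-142560034, plus strand: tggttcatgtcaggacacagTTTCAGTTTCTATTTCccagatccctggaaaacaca
Gbp7, chr3:142530263-142530312, plus strand: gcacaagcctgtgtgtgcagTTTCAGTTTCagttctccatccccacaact
The genes with windows shown were chosen for the match. The same element stood in the window of Cxcl10, a T cell-drawing chemokine gene that rose by 3.28, and of B2m, the light chain of MHC class I.
Cxcl10, chr5:92349073-92349122, minus strand: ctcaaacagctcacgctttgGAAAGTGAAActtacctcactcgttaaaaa
B2m, chr2:122147528-122147577, plus strand: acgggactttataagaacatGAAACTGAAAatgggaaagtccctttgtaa

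Across the genes tested, a window was at hand for 14452, and 3.63% of these held this element. Of 15 type I interferon genes with a window 9 held it (60%), among them Ifit1 and Rsad2 (-0.18), which were not called. The share was 9.22% among genes that rose (71 of 770 with a window), 1.92% among genes that fell (14 of 728) and 3.39% among genes that were not called (439 of 12954). These shares are given as a description with no test, and a match in the window is not a bound site.

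Antigen presentation through MHC class I rose in all 14 measured members of its list, by 0.41 to 2.64, with a median of 0.89. Tap1, a peptide pump subunit, went from 7.29, 7.27 and 8.38 to 10.12, 9.95 and 9.48, a rise of 2.20 ± 0.29 (adjusted p = 0.0004). The immunoproteasome subunits Psmb8 and Psmb9 rose by 1.75 ± 0.27 and 1.79 ± 0.25, Tap2 by 0.96 ± 0.14, Tapbpl by 1.20 ± 0.18 and B2m by 0.70 ± 0.13. Of 10 MHC class II genes 6 rose, with a median of 1.42. The chaperone gene H2-DMa rose by 2.17 ± 0.32, Cd74, the invariant chain, by 1.89 ± 0.37, H2-Ab1 by 1.83 ± 0.32, and their activator Ciita by 1.31 ± 0.29. Ciita lost its call without 7CC replicate 1, at an adjusted p of 0.0514. The H2 genes are near-identical to one another in parts, so single members are less certain than the list.

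The list of interferon gamma and T helper 1 genes had 15 of 22 measured members higher and 1 lower, with a median of 0.81. Cxcl9, a chemokine for activated T cells, read 6.16, 5.38 and 7.53 at 7 weeks and 11.62, 10.63 and 9.91 at 9 weeks, a rise of 4.36 ± 0.69. Ido1, which breaks down tryptophan, rose by 3.38 ± 0.56, Il18bp, a soluble trap for IL-18, by 1.98 ± 0.28, Irf8 by 0.99 ± 0.17 and Irf1 by 0.82 ± 0.17. Ubd, a ubiquitin-like protein induced by interferon gamma and TNF, rose by 4.70 ± 0.63. The transcript of interferon gamma itself was spread widely at 9 weeks. Ifng read 6.82, 4.68 and 3.27 there against 3.02, 2.61 and 3.32 at 7 weeks, so that replicate 3 lay within the 7-week range, and the difference did not pass the test (1.94 ± 0.69, adjusted p = 0.072). The T helper 1 factor Tbx21 rose by 0.61 ± 0.15, near the bottom of the scale. It read 2.95, 3.02 and 3.04 at 7 weeks and 3.81, 3.31 and 3.70 at 9 weeks. Its call was lost without replicate 1 of either group and with both replicates 3 left out (adjusted p up to 0.0992). The member that fell was Il18, which epithelial cells hold ready for inflammasome processing: it went from 10.54, 10.51 and 10.38 to 9.15, 9.39 and 9.55 (-1.12 ± 0.27). Il18 lost its call without replicate 1 of either group (up to 0.0722).

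Genes of the type I interferon response moved less evenly, with 12 of 22 members up, none down and a median of 0.84. Zbp1, a sensor of Z-form nucleic acid, rose by 1.88 ± 0.22, Ifit2 by 2.24 ± 0.37 and Usp18, which ends interferon signalling, by 2.26 ± 0.43. Irf7, the master regulator of the response, gave no call (0.26 ± 0.28, adjusted p = 0.62), and Ifit1 did not pass (0.99 ± 0.45, adjusted p = 0.17). Among inflammasome and cell death genes, Ripk3 and Mlkl, kinase and executioner of necroptosis, rose by 1.61 ± 0.26 and 1.37 ± 0.24. Casp1 (0.20 ± 0.15) and Nlrp3 (0.21 ± 0.22) gave no call. Socs3, an inhibitor of STAT3 signalling, rose by 2.39 ± 0.45, with 7.22, 7.15 and 8.97 at 7 weeks and 10.50, 10.07 and 9.93 at 9 weeks, while Stat3 did not pass (0.31 ± 0.12, adjusted p = 0.089).

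The 2 rises with the smallest p-values were granzyme genes of cytotoxic lymphocytes. Gzmb, the cytotoxic protease granzyme B, read 4.63, 4.83 and 5.15 at 7 weeks and 8.53, 7.73 and 7.84 at 9 weeks, a rise of 3.16 ± 0.31 (adjusted p = 1.8e-05). Gzma, granzyme A, rose by 3.51 ± 0.38 (adjusted p = 4.2e-05), and Nkg7, a cytotoxic granule protein, by 1.83 ± 0.27. In 9-week replicate 3 neither Gzmb nor Gzma was the lowest of the 3 arrays. Perforin, Prf1, read 5.05, 4.90 and 4.78 at 7 weeks and 4.66, 4.45 and 4.48 at 9 weeks, a difference of -0.38 ± 0.13 that did not pass (adjusted p = 0.062). In all 6 of 12 cytotoxic markers and 9 of 15 T cell markers rose, with medians of 0.52 and 0.65. Cd3g, a subunit of the T cell receptor complex, rose by 2.23 ± 0.33. Ccl5, a chemokine that T cells make, rose by 2.74 ± 0.37, Ccl8 by 2.61 ± 0.39, and Ccr2, a receptor of inflammatory monocytes, by 1.66 ± 0.34.

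Cd3e (0.58 ± 0.16), Cd4 (0.65 ± 0.19) and Cd8a (0.47 ± 0.14) rose by less. Each lost its call without some of the 6 arrays, among them 7CC replicate 1 and 9CC replicate 2 (adjusted p up to 0.164, 0.179 and 0.161). Cd3e lost its call with only the arrays of the groups compared as well. Ctla4, an inhibitory receptor of activated and regulatory T cells, rose by 1.31 ± 0.26. Foxp3, the defining factor of regulatory T cells, read 3.20, 3.06 and 3.26 at 7 weeks and 2.97, 3.19 and 3.20 at 9 weeks. Il17a (0.82 ± 0.35, adjusted p = 0.13), Il4 (-0.04 ± 0.12) and Il13 (0.00 ± 0.13) gave no call, all near the bottom of the scale. Of 8 measured Th17 and IL-22 genes 1 fell, Il22ra2, the soluble trap for IL-22 (-1.07 ± 0.30). It lost its call without any 1 of the 7CC arrays or 9CC replicate 1 (up to 0.155). No B cell marker of 15 was called, where Ms4a1 read 4.77, 3.77 and 5.50 at 7 weeks and 5.47, 5.75 and 4.06 at 9 weeks, with overlapping groups. Among plasma cell markers 1 of 11 rose, Prdm1 (1.16 ± 0.25), and Jchain, the linker of secreted antibodies, gave no call (0.24 ± 0.30). Prdm1 lost its call without 9CC replicate 1 (up to 0.0526). Over all genes 5.34% rose and 5.10% fell.

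Of 24 matrix and remodelling genes 10 rose and 1 fell, with a median of 0.32. Mmp7, matrilysin, went from 5.17, 5.57 and 5.62 to 8.51, 9.39 and 8.23, a rise of 3.25 ± 0.55. Mmp10, stromelysin 2, rose by 3.05 ± 0.59, Mmp3, stromelysin 1, by 3.02 ± 0.72, Mmp13, a collagenase, by 2.74 ± 0.55, and Timp1, an inhibitor of these enzymes, by 1.69 ± 0.46. The member that fell, named after its values were seen, was Postn, the matrix protein periostin (-1.10). The main fibrillar collagen gene Col1a1 did not pass (0.15 ± 0.25). Vascular adhesion molecules for leukocytes rose, with Vcam1 at 1.77 ± 0.34, Icam1 at 2.13 ± 0.49 and the gut homing ligand Madcam1 at 0.95 ± 0.20, while 14 of 18 endothelial genes were not called. Mmp3 lost its call without 7CC replicate 2 or 9CC replicate 1 (up to 0.0913), Icam1 without 9CC replicate 1 (up to 0.0683), and Timp1 without replicate 1 or 2 of either group (up to 0.13).

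Of 14 inflammasome and gasdermin genes 5 rose and 1, Il18, fell (median 0.29), against 5.34% higher and 5.10% lower over all genes. Of 7 measured members of the list named IL-10 family receptors, which also holds Il10 and Tgfb1 themselves, 3 rose. They were Il10, the receptor gene Il10ra (1.19 ± 0.35) and Tgfb1 (0.87 ± 0.28). Il10rb, the shared receptor chain, lay between 9.47 and 9.69 in all 6 arrays. The last 2 that rose lost their calls in several leave-outs, among them those of replicates 1 and 2 of either group (adjusted p up to 0.208 and 0.173), and with the mean of probe sets. Of 19 CC chemokine and receptor genes 7 rose (median 0.51), of 14 genes of STAT3 feedback 8 (0.71) and of 14 genes of NF-kB feedback 5 (0.54). Of 11 complement genes 5 rose (0.38), of 13 regulatory T cell and checkpoint genes 6 (0.53) and of 10 dendritic cell genes 3 (0.24). Of 11 type 2 immunity genes 3 rose (0.24), among them the receptor gene Il4ra (1.08 ± 0.24). Il4ra lost its call without replicate 1 of either group (adjusted p up to 0.0569), and another of its probe sets differed by -0.001. The mast cell proteases Mcpt1 and Mcpt2 were the only 2 of 14 mast cell and eosinophil genes to rise, and Mcpt1 read 5.77, 3.45 and 3.49 at 9 weeks against 2.52 to 2.63 at 7 weeks. Both lost their calls with only the groups' arrays and without replicate 1 or 2 of 7CC or replicate 1 of 9CC (adjusted p up to 0.206 and 0.327). Mcpt2 lost it also with the replicate block, after quantile normalization again and in most other leave-outs.

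No gene of 12 for prostaglandin synthesis and breakdown was called (-0.11), none of 9 EGF receptor ligands (0.23) and none of 12 fibroblast markers (-0.13). Of 15 immediate early genes 3 fell (-0.38), among them Nr4a1, an orphan nuclear receptor (-1.16 ± 0.29; lost without replicate 1 or 2 of 7CC or replicate 2 of 9CC, adjusted p up to 0.079). Single calls among about 20 genes are near the share over all genes, 5.34% higher and 5.10% lower. Of 20 unfolded protein response genes 1 fell (0.17), of 19 fatty acid oxidation genes 1 rose, Acadl (0.48 ± 0.10; list median -0.22), and of 10 tuft cell genes 1 fell, Dclk1 (-1.18 ± 0.27; list median -0.12; lost without 7CC replicate 2, adjusted p 0.0559). The other probe sets of Dclk1 differed by 0.04 and 0.06, and the mean over its probe sets gave -0.40. Of 11 colon epithelium genes 1 fell, Hoxb13, and of 9 pancreatic acinar genes 2 fell, Clps and Cela1. Cela1 lost its call without replicate 1 of either group (adjusted p up to 0.0558).

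**Figure D3:**
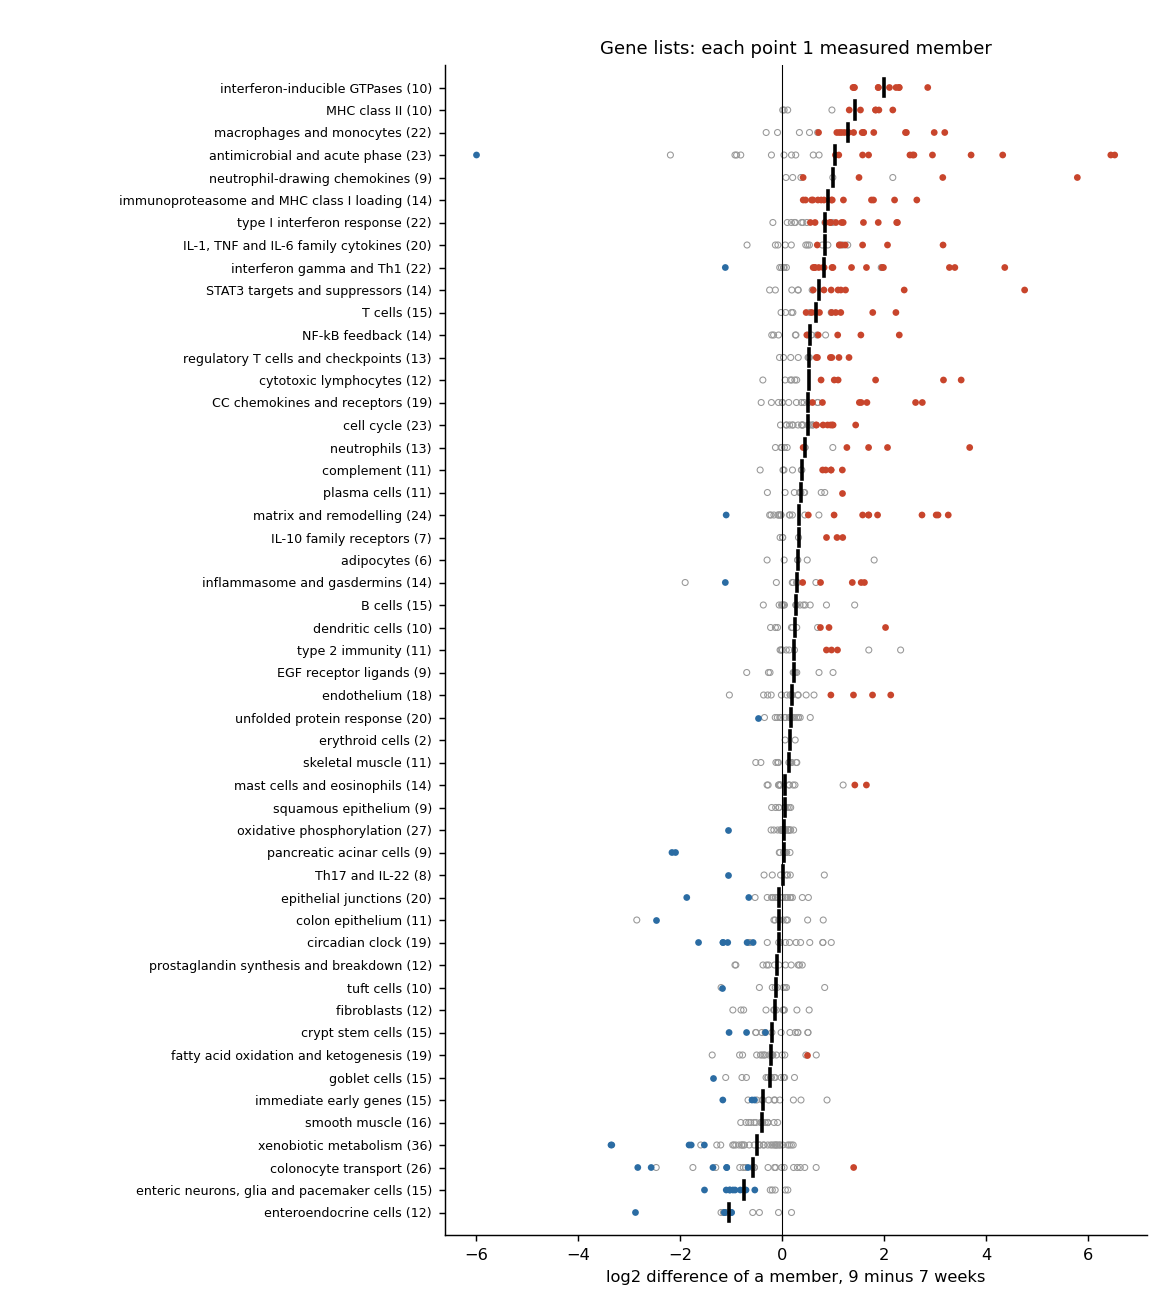
Log2 difference, 9 minus 7 weeks, of every measured member of 51 gene lists, ordered by their medians (black bars), with the number of members in brackets. Filled red and blue points are members called higher and lower, and open points were not called. All 10 interferon-inducible GTPases are red, while the lists at the bottom, from enteroendocrine cells (median -1.05) to smooth muscle (-0.39), lie mostly below 0.

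The largest fall was that of Mptx1, a mucosal pentraxin of the colon epithelium, which read 12.39, 12.05 and 11.75 at 7 weeks and 3.63, 5.33 and 9.26 at 9 weeks. That is a fall by 5.99 on the log2 scale, with 9-week replicate 3 well above the others. Its SE was 1.38, and its call was lost without replicate 1 of either group (adjusted p up to 0.0803). Tgm3, a transglutaminase, went from 11.57, 11.57 and 10.74 to 5.62, 6.35 and 8.36 (-4.52 ± 0.95). Sycn, syncollin, a secretory granule protein, went from 12.27, 12.04 and 11.40 to 7.27, 7.22 and 8.63 (-4.19 ± 0.83). The cytochromes P450 Cyp2c68 and Cyp2f2 fell by 3.36 and 3.34, and 5 of 36 xenobiotic metabolism genes fell in all, with a median of -0.50. Ttr, a thyroxine carrier, fell by 3.22, a call lost without 9CC replicate 1 (adjusted p of 0.0518). Tppp3 (-2.33 ± 0.47) and Clps (-2.16 ± 0.47), the latter a lipase cofactor known from pancreas, also fell. The acinar marker Cpa1 was near the bottom of the scale in all 6 arrays (3.54 to 3.93).

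Transport genes of colonocytes fell in 6 of 26 measured members and rose in 1, with a median of -0.57. Trpm6, the magnesium channel of the colon surface, went from 10.24, 9.92 and 9.32 to 6.47, 7.40 and 7.91 (-2.57 ± 0.52). Car2, a carbonic anhydrase, fell by 1.09 ± 0.23 and Slc16a1, which carries butyrate, by 0.67 ± 0.13. Slc26a3, the chloride-bicarbonate exchanger whose loss causes chloride diarrhoea, fell by 1.09 ± 0.29, and Car4 by 1.36 ± 0.37. Aqp8, a water channel, read 11.18, 10.68 and 11.05 at 7 weeks and 9.12, 9.26 and 9.28 at 9 weeks. The groups did not overlap, yet the gene did not pass in the model that shares spread with the other groups (-1.75 ± 0.70, adjusted p = 0.11). The member that rose was Slc51b, a bile acid exporter subunit (1.40 ± 0.28). Slc26a3 and Car4 lost their calls without replicate 1 or 2 of either group (adjusted p up to 0.0993 and 0.146).

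Among epithelial junction genes 2 of 20 fell. Over all genes 5.10% fell, and single calls in the lists of this paragraph are near that share. Cldn8, a sealing claudin of the distal colon, went from 11.04, 10.98 and 10.33 to 8.05, 9.25 and 9.43 (-1.87 ± 0.36). Ocln, occludin, fell by 0.66 ± 0.16, a call lost without replicate 1 of either group (adjusted p up to 0.097). Of 15 goblet cell genes 1 fell, Clca1 (-1.37 ± 0.43), a secreted mucus protein whose call was lost without any 1 of the 7CC arrays and in most other leave-outs (up to 0.221). Muc2, the main gel-forming mucin, gave no call and lay between 13.69 and 14.10 in all 6 arrays. Of 15 crypt stem cell genes 3 fell, among them Tnfrsf19 (-1.04 ± 0.18), a Wnt target, while the stem cell marker Lgr5 did not pass (-0.40 ± 0.20, adjusted p = 0.21). Among 27 oxidative phosphorylation genes 1 was called, and Cox4i1 lay between 12.81 and 12.92 in all 6 arrays. Hoxb13, a homeobox gene of the distal colon, read 11.05, 10.54 and 10.15 at 7 weeks and 6.61, 9.13 and 8.55 at 9 weeks (-2.48 ± 0.55, lost without replicate 1 of either group, up to 0.0726). Cdx2, an intestinal factor, did not pass (0.80 ± 0.27, adjusted p = 0.061). Which stretch of colon each array holds is not stated, and its part in the epithelial falls was not tested.

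Of 12 enteroendocrine markers 5 fell and none rose, with a median of -1.05. Insl5, a hormone of distal colon L cells, went from 10.38, 9.77 and 9.95 to 6.65, 6.35 and 8.47 (-2.88 ± 0.68). Cpe, a prohormone-processing enzyme, fell by 1.14 ± 0.33, Pyy, the L cell hormone peptide YY, by 1.13 ± 0.36 and the endocrine factor Neurod1 by 0.99 ± 0.23. Chga, the general granule marker, did not pass (-1.15 ± 0.39, adjusted p = 0.059). Of 15 markers of enteric neurons, glia and pacemaker cells 9 fell, with a median of -0.75. Ano1, the chloride channel of pacemaker cells, fell by 1.52 ± 0.35, Snap25, a synaptic protein, by 1.10 ± 0.27 and Uchl1, a neuronal hydrolase, by 1.03 ± 0.27. S100b, a glial protein, did not (0.11 ± 0.18). Insl5 and Uchl1 were lost without replicate 1 of either group or 9CC replicate 2, Ano1 without replicate 1 of either group, Cpe and Snap25 without replicate 1 or 2 of either group, Neurod1 without 7CC replicate 2 and Pyy in most leave-outs and with the replicate block. The highest adjusted p, in that order, were 0.0695, 0.101, 0.0626, 0.136, 0.0864, 0.0567 and 0.217.

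The muscle wall gave no called gene, but a uniform sign. All 16 smooth muscle markers were lower at 9 weeks, by 0.09 to 0.81, with a median of -0.39. Acta2, smooth muscle actin, read 13.18, 13.04 and 12.99 at 7 weeks and 12.66, 12.72 and 12.64 at 9 weeks, with no overlap, yet did not pass (-0.40 ± 0.17, adjusted p = 0.14). In SPF knockouts all 16 were lower as well, by 0.25 to 0.65, with a median of -0.40 and no call. The mean of the list in conventional knockouts was 11.16 ± 0.13 (SD) at 7 weeks and 10.73 ± 0.04 at 9 weeks. This lower muscle signal stands beside the falls of nerve and pacemaker genes, and its part in them was not tested. No member of the skeletal muscle, squamous epithelium, erythroid or adipocyte lists was called. Adipoq, an adipocyte hormone, varied widely within both ages (5.48, 3.39 and 4.29 against 6.33, 5.36 and 6.87).

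Cell cycle genes rose in 8 of 23 measured members and fell in none, with a median of 0.51. Rrm2, a subunit of the enzyme that makes deoxynucleotides, rose by 1.44 ± 0.36 and Birc5, a mitotic survival protein, by 1.00 ± 0.25. Mki67, the proliferation antigen, read 10.74, 10.47 and 10.17 at 9 weeks against 9.98 to 10.20 at 7 weeks and did not pass (0.38 ± 0.15, adjusted p = 0.1). Replicate 3 again lay within the 7-week range. Rrm2 and Birc5 lost their calls without replicate 1 or 2 of 7CC or replicate 1 of 9CC (adjusted p up to 0.0864 and 0.0957).

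The 6 arrays were ordered in much the same way across the called genes. Among the 971 genes that rose, replicate 3 was the lowest of the 9-week arrays for 731 and replicate 3 the highest of the 7-week arrays for 672. Among the 928 that fell, 9-week replicate 3 was the highest for 533 and 7-week replicate 3 the lowest for 664. Both replicates 3 thus lay toward the other age for most called genes. With both left out, 2101 genes were called, 1164 of them higher, a setting added after the data were seen. The numbers do not pair the arrays of the 2 ages.

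The change from 7 to 9 weeks was compared with that of wild types in the same housing. Between 9 and 7 weeks the wild types gave 1 called gene, the clock gene Ciart (0.00550% of those tested; 725 at an unadjusted p under 0.05), against 1899 in the knockouts. The change differed between knockout and wild type for 366 genes (2.01%), 202 (1.11%) with the more positive change in the knockouts and 164 (0.901%) with the more negative. S100a8 moved by -0.32 in wild types and Cxcl5 by -0.07, and the differences of the changes were 6.83 (adjusted p = 0.032) and 5.86 (0.024). Those of Gzmb (3.22) and Gzma (3.76) had an adjusted p of 0.0014 each. Of the 14 genes of MHC class I loading 12 differed in their change, and of the 10 GTPases 6. Cldn8 stood at 10.42 or above in 9-week wild types and at 9.96, 9.46 and 8.79 in those of 7 weeks, a difference of 1.32 that was not called there (difference of changes -3.19, adjusted p = 0.0046). The change also differed for Trpm6 (-3.32), Sycn (-4.47), Cpm (-2.94), Tppp3 (-2.93) and Slc16a1 (-0.96). No gene of the enteroendocrine or of the nerve and pacemaker list differed. The median changes of these lists were 0.02 and 0.11 in wild types against -1.05 and -0.75 in the knockouts, with no test of the medians. The count of 366 ranged from 48 without 7CC replicate 2 to 1353 without 12SPF replicate 2.

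**Figure D4:**
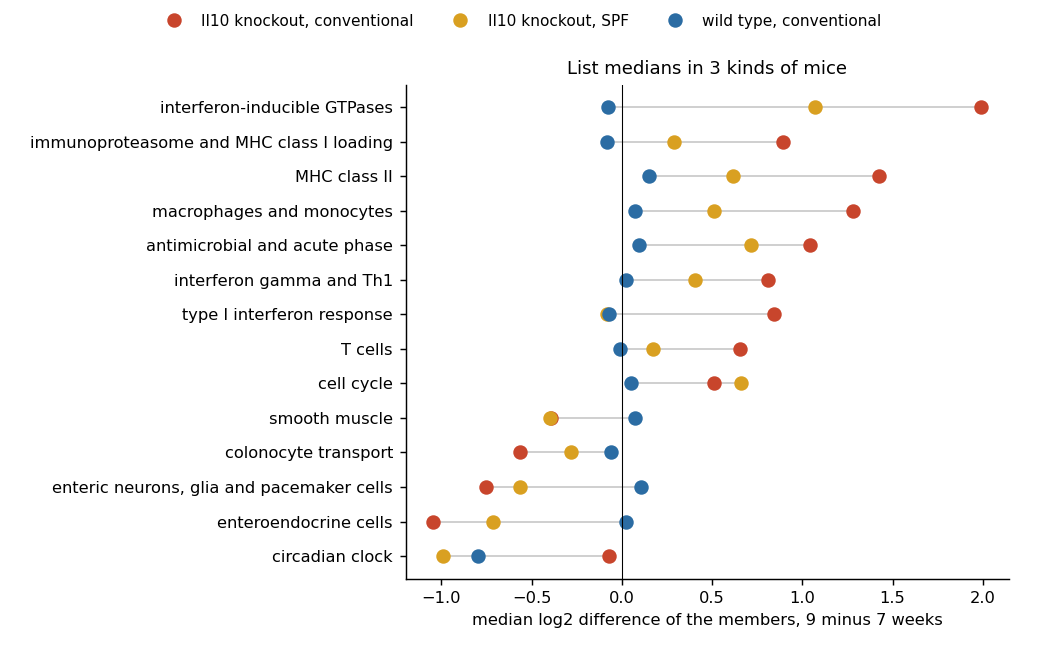
Median log2 difference, 9 minus 7 weeks, of the measured members of 14 lists, in conventional knockouts (red), SPF knockouts (yellow) and wild types (blue). The GTPase list stands at 1.99, 1.07 and -0.08, and the circadian clock list at -0.07, -0.99 and -0.80.

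SPF knockouts allow the same comparison with housing changed. They gave 132 called genes between 9 and 7 weeks (0.726%), 85 higher and 47 lower. The GTPase list had a median of 1.07 there against 1.99, macrophage markers 0.51 against 1.28 and enteroendocrine markers -0.72 against -1.05. The type I interferon list stood at -0.08 in SPF knockouts and 0.84 in conventional ones, and the cell cycle list at 0.66 and 0.51. These medians carry no test. The spread among the 9SPF arrays was large: S100a8 read 3.84, 4.63 and 9.66 there. The change differed between housings for only 17 genes (0.0934%), 8 (0.0440%) more positive and 9 (0.0495%) more negative in the conventional knockouts, and 1319 at an unadjusted p under 0.05. Of the 17, 9 were in the clock list and 1, Cldn8, in the junction list, and none was in the interferon, myeloid or T cell lists.

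The circadian clock is a feedback loop in which Arntl and Npas2 drive Per and Cry genes that then repress them. Arntl read 8.53, 8.60 and 8.47 in 7CC and 7.46, 7.56 and 7.09 in 9CC, a fall by 1.16 on the log2 scale. In SPF knockouts it rose, from 6.44, 6.14 and 6.22 to 8.28, 8.14 and 7.81, and the changes differed by -2.97 ± 0.47 (adjusted p = 0.0051). Dbp, a clock output factor, was low in all 6 conventional knockout arrays (5.53, 4.87 and 5.03, then 5.0, 5.76 and 7.05). It stood at 10.16, 10.33 and 10.18 in 7SPF and at 4.78, 5.02 and 3.90 in 9SPF, and the changes differed by 6.45 (adjusted p = 0.0041). The 7-week wild types were at 10.06, 10.26 and 10.22, and those of 9 weeks at 6.68, 6.60 and 6.97. Dbp thus separated 7CC from the other 7-week groups, while all 9-week arrays were at 7.05 or below.

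Within the conventional knockouts, 6 of 19 clock genes fell and none rose, with a median of -0.07. Per2, a repressor of the loop, fell by 1.64 ± 0.31, Cry1 by 1.16 ± 0.24, Npas2 by 1.07 ± 0.26 and Wee1, a clock-controlled mitotic kinase, by 0.57 ± 0.12. Per2 also fell by 1.72 in SPF knockouts, and it differed by -1.42 in wild types without passing. Tests of the difference from its change in conventional knockouts gave adjusted p = 0.84 for wild types and 0.99 for SPF knockouts. Nr1d1 (0.96 ± 0.41) and Nr1d2 (0.80 ± 0.37), repressors of Arntl, did not pass within the conventional knockouts, although their changes differed from those of SPF knockouts by 3.60 and 3.47. The E-box CACGTG, through which Arntl acts, was found in the windows of 5 of 16 clock genes (31.2%), against 8.09% of all genes in the table, 10.2% of the genes tested and 12.4% of genes that fell. Arntl lost its call without any 1 of the 6 arrays (adjusted p up to 0.108), and Npas2 without 7CC replicate 1 or 2 or 9CC replicate 1 (up to 0.0837). With no hour of collection given, time of day and group cannot be told apart for these genes. Some genes outside the clock list also stood higher in 7CC than in both other 7-week groups. Mean Cldn8 was 10.78 in 7CC, 9.40 in 7WT and 9.09 in 7SPF, and mean Tppp3 was 9.96, 8.88 and 8.99. Cpm (9.33, 8.59 and 8.16) and Trpm6 (9.83, 9.25 and 9.18) were likewise highest in 7CC, while Sycn was not (11.90, 12.20 and 11.80). The part of collection time in their changes was not tested.

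The levels at 12 weeks come from 3 further conventional knockout arrays. S100a8 read 3.43, 3.56 and 3.46 at 12 weeks, Iigp1 9.09, 9.15 and 9.34, Mptx1 12.12, 11.99 and 12.01 and Insl5 10.03, 9.55 and 9.35. Gzmb, at 6.01, 5.76 and 5.90, lay between its 7-week and 9-week values. The mean of the macrophage list was 6.13 ± 0.10 (SD) at 12 weeks, against 6.12 ± 0.03 at 7 and 7.45 ± 0.39 at 9 weeks. These samples come from different mice at each age, and no test was made of 12 against 9 weeks.

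**Figure D5:**
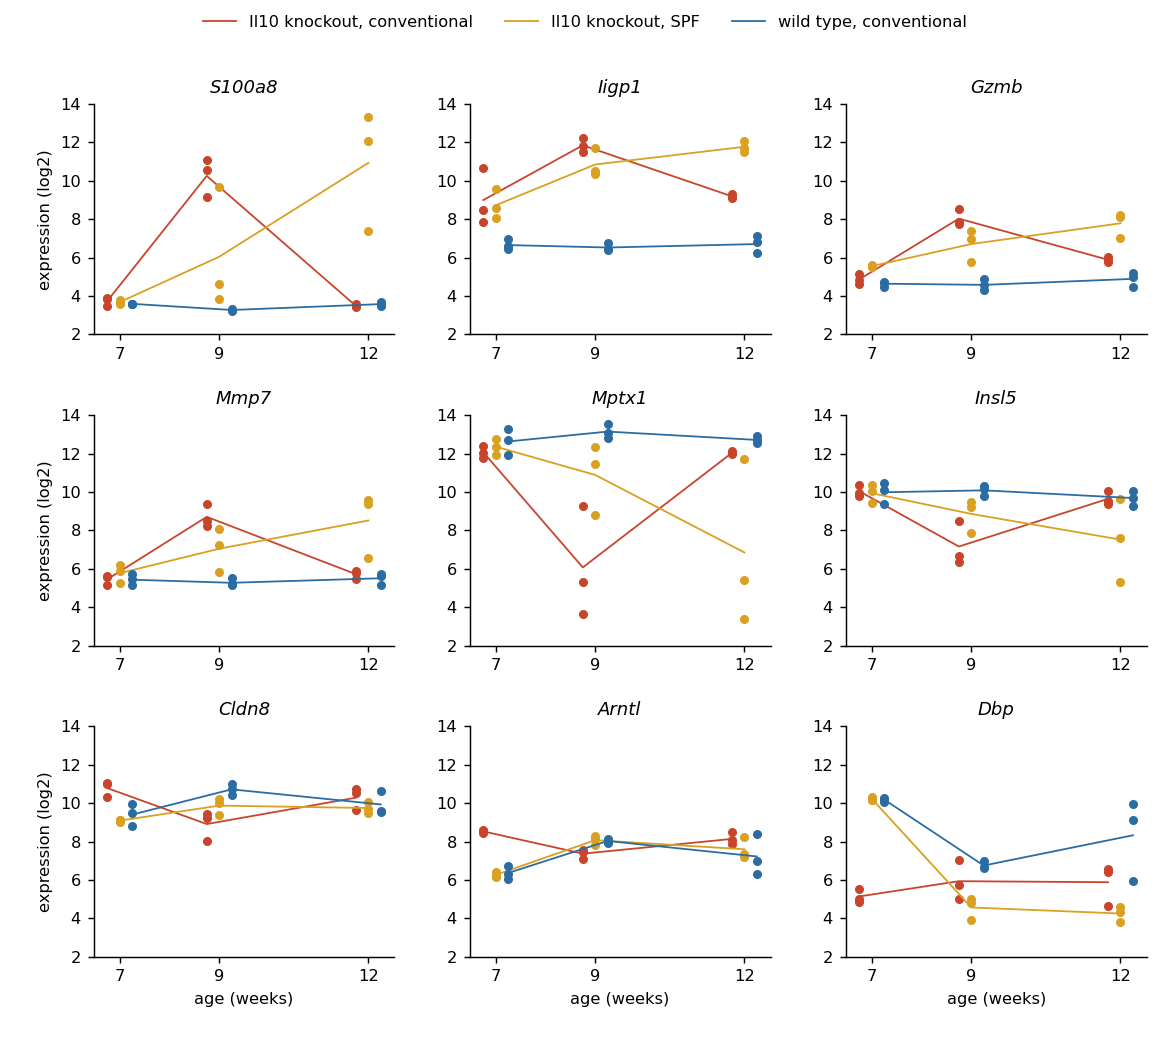
Log2 expression of 9 genes by age in weeks, with points for single arrays and lines through the means of 3 arrays, in conventional knockouts (red), SPF knockouts (yellow) and wild types (blue). In conventional knockouts S100a8, Iigp1, Gzmb and Mmp7 peak and Mptx1, Insl5 and Cldn8 dip at 9 weeks, while Dbp stands apart at 7 weeks, near 5 against about 10 in the other kinds.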

How the data were processed

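Full-thickness colon RNA was hybridized to Affymetrix arrays, 1 per sample, and normalized with affyPLM, per the series' design text. The array named there is a rat one, whereas the identifiers match a mouse design. The deposited values were taken as log2 from their range (2.10 to 14.25), and their summary method and version are not stated in those sources. Of 45101 probe sets, 64 controls, 932 with several symbols and 9160 with none were left out. The other 34945 gave 18193 genes, each by its probe set with the highest mean (9010 genes had several). Of 1038 called genes with several, all probe sets had the same sign in 78.3%.

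limma (3.58.1, R 4.3.3) fitted 9 group means over 27 arrays (18 residual degrees of freedom) and contrasts were tested with eBayes, two-sided, Benjamini-Hochberg adjusted, after a check on simulated data. Array medians lay between 4.92 and 4.99, and precision is limited by the number of arrays. The comparison and the 52 lists (768 of 838 members measured) were chosen with earlier results of these data known. Named were the 12 largest rises and falls among called genes with arrays apart, the 6 largest each way in the comparisons of changes, and per list the first 4 genes and up to 4 called members of smallest adjusted p, of which part is printed. Alternatives were a replicate block, quantile normalization again, median centring, no dim genes (lowest 40%), mean of probe sets, an intensity trend, array weights, only the groups' arrays, all probe sets and leaving out each array. Replicate numbers were not taken as pairs, since deviations of same-numbered 7CC and 9CC arrays correlated at -0.10, -0.02 and -0.24. Those of wild types correlated at 0.37, 0.09 and 0.40, and those of SPF knockouts at -0.05, 0.13 and 0.28, so not every pair passed 0.1. Python 3.11.15, pandas and matplotlib made tables and figures.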

Additional observations from a re-analysis of the deposited data

Results flagged for a closer look

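The change from 7 to 9 weeks differed between conventional knockouts and another kind of mouse for the genes below, by limma on the difference of the changes (adjusted p under 0.05 over all genes, n = 3 arrays a group). All values are differences of log2 changes.

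Against wild types, the knockouts had the more positive change in these genes. The differences were S100a8 6.83, S100a9 6.49, Cxcl5 5.86, Sprr2h 4.74, Lrg1 4.76, Ubd 4.72, Cxcl9 3.82, Saa3 4.02 and Clec7a 3.48. Further differences were Dbp 4.22, Ciart 2.35, Tns4 0.90, Il18bp 2.07, Ido1 3.51, Irf8 0.94, Iigp1 2.98, Irgm1 1.62 and Igtp 2.29. Further differences were Gbp8 2.33, Psmb8 1.97, Psmb9 2.08, Tap1 2.26, Tap2 1.05, Tapbpl 1.59, B2m 0.77, H2-DMa 2.00 and H2-Eb1 1.65. Further differences were Zbp1 2.29, Ifit2 2.41, Usp18 2.38, Ccl5 2.82, Ccl8 2.55, Socs3 2.63, Nos2 2.45, Pla2g2a 2.95 and Ripk3 1.51. Further differences were Mlkl 1.60, Mmp7 3.41, Mmp10 3.49, Slc51b 1.56, Acadl 0.67, Mpeg1 1.63, Fcgr4 2.23, Cd3g 2.36 and Gzma 3.76. Further differences were Gzmb 3.22, Nkg7 1.98, Madcam1 1.32 and Vcam1 1.85. The change was more negative in the knockouts by these differences: Sycn -4.47, Trpm6 -3.32, Cldn8 -3.19, Cpm -2.94, Tppp3 -2.93, Arntl -2.83, Cry1 -1.87, Npas2 -2.64, Lonrf3 -2.43, Fosb -0.89, Slc16a1 -0.96, Ocln -1.01 and Tnfrsf19 -1.16.

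Against SPF knockouts, the change was more positive in the conventional knockouts by Dbp 6.45, Nr1d1 3.60, Nr1d2 3.47, Tef 3.07, Ciart 2.75 and Tns4 1.30. It was more negative by Cldn8 -2.65, Arntl -2.97, Cry1 -2.54, Npas2 -2.46, Nfil3 -2.04 and Lonrf3 -2.03. Arntl, Cry1, Npas2, Lonrf3, Dbp, Ciart, Tns4 and Cldn8 differed from both other kinds.

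Outside the comparison, S100a8 had a mean level of 10.94 in the 12-week SPF knockouts (12.06, 7.41 and 13.34), against 3.20 to 3.71 in the 9 wild-type arrays.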

How the results depend on the processing

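Counts of called genes depended most on single arrays and on array weights. For the 9 against 7 week comparison in conventional knockouts, array weights gave 5072 genes and all probe sets 2940, and leaving out 1 array gave 429 to 2962. Without 7CC replicate 1, 306 calls were higher and 136 lower, against 971 and 928 with all arrays. For the difference from the wild-type change, array weights gave 3101, only the groups' own arrays 1670, and leaving out 1 array 48 to 1353. For the difference from the SPF change, array weights gave 1456 and leaving out 1 array 12 to 56. The wild types gave 4 genes after quantile normalization again, 2 centred, 3 without dim genes, 5 with the mean of probe sets, 3 with the trend, 35 with weights, 15 with only their arrays, and 0 to 13 leaving out 1 array. The SPF knockouts gave 3392 with weights, 16 with only their arrays, and 23 to 410 leaving out 1 array.

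With the replicate number as a block, 2017 genes were called in the conventional knockouts, 169 in SPF knockouts and 422 for the difference from wild types. The numbers share no stated source. All 6 wild-type arrays of 7 and 9 weeks correlated best with their own number, against 3 of 6 in SPF and 0 of 6 in conventional knockouts. Of 131 called genes named in the text or figures, 76 kept their call in every setting run, and none changed sign. The cause of these shifts was not tested.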

Other observations

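Probe sets left out of the gene tests also changed between 7 and 9 weeks. When all non-control probe sets were tested together, 127 of the 9160 with no gene symbol were higher and 136 lower (2.87% called), and of the 932 with several symbols 51 were higher and 26 lower (8.26%), against 6.53% of all probe sets.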
